A study of Mus musculus with 10 samples.

Results

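Motor neurons differentiated from mouse embryonic stem (ES) cells were compared with motor neurons taken from the embryo, on 4 ES-derived arrays and 4 embryonic arrays out of 10 in the series. The 8 arrays were chosen by their sample titles. ES-derived cells came from the Hb9::GFP-transgenic V6.5 ES cell line after directed differentiation, by a protocol the labels do not give. Embryonic cells came from the spinal cord of Hb9::GFP-transgenic embryos of the C57BL/6 background at E13.5. In both origins a motor neuron promoter, that of Mnx1 (also called Hb9), drove green fluorescent protein (GFP), and the sort kept a bright (GFP-high) and a dimmer (GFP-medium) fraction, with 2 arrays per fraction and origin. The remaining 2 arrays, from motor neurons induced out of fibroblasts, entered only the normalization and the estimate of the spread. V6.5 is 1 cell line, and the labels name no number of embryos, litters or cultures behind an array, so every p-value covers only array-to-array spread, and that spread may be technical. In sorted pools, fewer cells of a type and less RNA per cell cannot be told apart.

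Spinal motor neurons form from ventral progenitors under the influence of retinoic acid and Sonic hedgehog, and the LIM homeodomain factors Isl1 and Lhx3 together with Mnx1 fix their identity. Their position along the body axis is set by the Hox genes, whose 3' members (low paralog numbers) are used at hindbrain and cervical levels and whose 5' members (high numbers) are used at thoracic, lumbar and sacral levels. In the dish, retinoic acid is known to lead to cervical identities. In the embryo the same neurons lie among glia, vessels, meninges and blood, and their axons reach muscle. Whether RNA of these tissues was in the sorted pools was not tested.

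The arrays measured signal with bead probes, and each level below is a normalized log2 intensity. Values by array are given in the order GFP-high 1, GFP-medium 1, GFP-high 2 and GFP-medium 2 within each origin, where the number is the replicate. A probe counts as detected at a detection p under 0.01. A gene was called at an adjusted p under 0.05 (limma across all features, Benjamini-Hochberg), and each difference is ES-derived minus embryonic, ± standard error.

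Both replicate 1 arrays of the ES-derived cells stood apart. ES-derived GFP-high 1 had a mean deposited intensity of 3.16 and detected 2095 probes, while the other 3 ES-derived arrays detected 7264 to 10041 and the 4 embryonic arrays 6921 to 11441. Its lowest detected level was 8.68, against 4.86 to 5.55 on the other 3 ES-derived arrays, so a gene under 8.68 had no measured level on it. ES-derived GFP-medium 1 was bright in genes of stem cells: the mean level over 15 pluripotency genes was 9.80 on it, against 5.82, 5.99 and 7.01 on the other 3 ES-derived arrays and 4.97 to 5.55 on the embryonic ones. Nanog, a defining pluripotency factor, was at 12.36 on it and Isl1 at 5.90, the lowest Isl1 level of the 8 arrays. On this array 3 of 13 motor neuron transcription factors were detected, against 11 of 13 on each of the 2 replicate 2 arrays. Leaving aside GFP-high 1, the correlation of log2 levels across genes was 0.801 to 0.911 among the 3 ES-derived arrays and 0.913 to 0.980 among the 4 embryonic arrays. Between ES-derived and embryonic arrays it was 0.792 to 0.913. The median was 0.855 between origins, 0.846 within ES-derived and 0.937 within embryonic arrays. Within ES-derived arrays, the pairs with GFP-medium 1 were at 0.801 and 0.846, and the pair of replicate 2 arrays was at 0.912. These replicate 2 arrays correlated with the embryonic arrays at 0.828 to 0.913. Results are therefore given with all arrays and without GFP-high 1. Of 35 named genes called with all arrays, 6 lost the call without GFP-medium 1 (Hoxc6, Hoxc10, Nfib, Wnt5a, Cldn12 and Ttc27).

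With all arrays, 87 of 9679 features were called (0.899%), 8 higher (0.0827%) and 79 lower (0.816%) in ES-derived cells. All 87 had levels that did not overlap between the 4 ES-derived and the 4 embryonic arrays, as did 7.30% of all features. Without GFP-high 1, 275 of 9647 features were called (2.85%), 95 higher (0.985%) and 180 lower (1.87%), and these held all 87. Of the 79 lower features, 32 were detected on no ES-derived array. The count rested on the scaling of the arrays. Quantile normalization gave the 87, scaling each array to its median over all probes gave 6, and scaling to the median of the probes detected on every array gave 0, with 295 features at an unadjusted p under 0.05. No called gene named below changed sign under either scaling, whose all-feature medians were -0.58 and 0.48 log2, against -0.13 for quantile normalization. With undetected levels set to the lowest detected one, 6 features were called, 5 higher and 1 lower, and 4 of them were among the 87. The calls lost there included Hoxd10, Hoxc10, Nfib, Actc1, Fbln2, Hbb-y, Hba-a1, Hbb-bh1, Zic1 and Eif2s3y. Where a fold is given below as "at least", the adjusted p beside it is that of the normalized levels, not of the bound. The count also moved when 1 array was left out, from 36 without embryonic GFP-high 2 or embryonic GFP-medium 2 and 37 without embryonic GFP-high 1 up to the 275 above, and it was 51 or 52 without 1 of the 2 induced arrays.

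**Figure D1:**
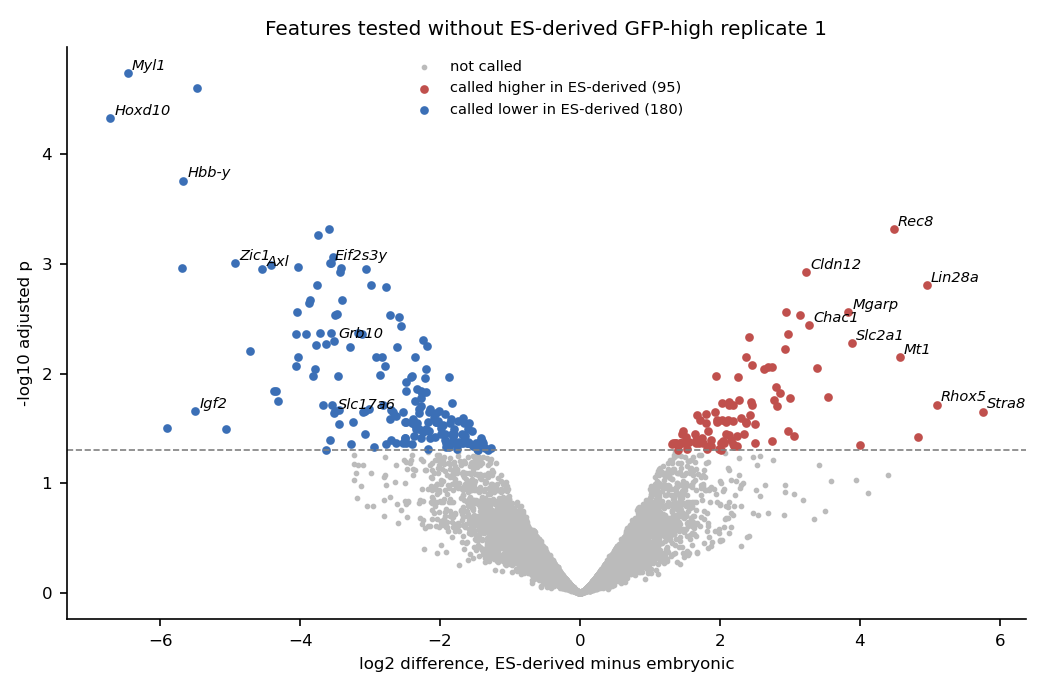
Each point is 1 of 9647 features tested without ES-derived GFP-high 1, with the log2 difference (ES-derived minus embryonic) on the x axis and -log10 of the adjusted p on the y axis; the dashed line marks the adjusted p of 0.05. The 95 red points were called higher and the 180 blue points lower in ES-derived cells, and Myl1, Hoxd10 and Hbb-y lie at the top left.

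The gate markers themselves were checked first. Mnx1, whose promoter drives the reporter, was detected on 0 of 4 ES-derived and 0 of 4 embryonic arrays by the probe used, so the sort could not be checked through it. Isl1 was detected on all 8 arrays, at 9.53, 5.90, 11.59 and 11.97 on the ES-derived arrays and 9.38, 10.43, 11.53 and 9.89 on the embryonic ones. The groups overlapped, and the difference was -0.56 ± 1.16 (adjusted p = 0.896). Lhx3, the partner of Isl1 in the medial motor column, was detected on GFP-high 2 and GFP-medium 2 of the ES-derived arrays (5.43 and 6.76) and on 1 of 4 embryonic arrays (0.60 ± 0.55, adjusted p = 0.74). Chat, which makes acetylcholine, was detected on 2 of 4 ES-derived arrays, at 8.92 and 7.32 on GFP-high 2 and GFP-medium 2, and on 4 of 4 embryonic arrays at 5.30, 7.74, 7.94 and 5.29. Its difference was 0.67 ± 0.91 (adjusted p = 0.83). Tubb3, a neuronal tubulin, was detected on 0 of 4 ES-derived and 2 of 4 embryonic arrays, and Slc18a3, the vesicular acetylcholine transporter, passed the detection filter in no probe.

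Over the list of motor neuron transcription factors 0 of 13 tested members were called with all arrays, with a median difference of -0.07 against -0.13 over all features, or 0.66 against 0.69 with undetected levels set to the lowest detected one. Without GFP-high 1, where 1.87% of all features were called lower, the LIM-only cofactor Lmo4 was called lower (-2.05 ± 0.39, adjusted p = 0.0274). Its levels were 10.33, 9.95, 8.52 and 10.08 in ES-derived cells and 11.26, 11.51, 10.60 and 11.96 in embryonic cells, and it was not called with all arrays (adjusted p = 0.163). Among 11 cholinergic and effector genes 0 were called with all arrays, and without GFP-high 1 Vat1l was the 1 called member (-2.16 ± 0.39, adjusted p = 0.0223). Vat1l was detected on GFP-high 1 at 10.87, its highest level on the 8 arrays, and its difference with all arrays was -1.28 (adjusted p = 0.504). Pan-neuronal genes gave 0 calls among 25 tested with all arrays and among 24 without GFP-high 1, and the 16 synaptic genes gave 0 in either fit. With all arrays the median difference was -0.52 for pan-neuronal and -0.16 for synaptic genes, against -0.13 over all features. Without GFP-high 1 both medians lay lower, at -1.05 and -0.60, against 0.03 over all features. The mean level of the pan-neuronal list was 9.88, 6.31, 7.85 and 7.94 on the ES-derived arrays and 8.61, 8.88, 8.60 and 8.31 on the embryonic ones, so the 2 replicate 1 arrays held the highest and the lowest value. The lowest adjusted p among named members of these 2 lists was 0.0552 for Dpysl3, an axon growth protein, without GFP-high 1 (-3.23 ± 0.75).

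With all arrays, 1 of 10 motor column and pool genes, 1 of 15 ion channel and receptor genes and 1 of 17 temporal and maturation factors were called lower. In each list 0 were called higher, and 0.816% of all features were called lower. The 3 genes were Alcam, Gria1 and Nfib. Alcam, an adhesion protein of axons, fell by 2.94 ± 0.50 (adjusted p = 0.0284). Its levels were 6.11, 7.38, 6.25 and 6.08 in ES-derived cells and 8.89, 8.62, 10.11 and 9.98 in embryonic cells. Gria1, an AMPA-type glutamate receptor subunit, fell by 2.59 ± 0.39 (adjusted p = 0.0171), with 4.64, 4.40, 4.45 and 5.18 in ES-derived cells and 7.81, 7.58, 6.52 and 7.11 in embryonic cells. It was detected on 1 ES-derived array. Nfib, a factor of later-born neurons and glia, was detected on 0 of 4 ES-derived arrays and was at least 1.20-fold lower (adjusted p = 0.0274). Its levels in embryonic cells were 6.27, 6.97, 6.00 and 6.27. Like all 87 features called with all arrays, Alcam, Gria1 and Nfib did not overlap between the groups. Each lost its call in at least 1 fit that left out an array, with adjusted p up to 0.121, 0.0883 and 0.147. Without GFP-medium 1 the adjusted p of Nfib was 0.0504.

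Without GFP-high 1, where 1.87% of all features were called lower, further neuronal genes were among them. The neurotrophin receptors Ntrk3 (receptor of NT-3; -2.63 ± 0.57, adjusted p = 0.0432) and Ntrk2 (receptor of BDNF; -1.65 ± 0.34, adjusted p = 0.0367) were 2 of the 9 neurotrophic receptors tested. Ntrk3 was at 4.39, 4.46, 6.61 and 6.49 in ES-derived cells, with detection on the 2 replicate 2 arrays, and at 8.61, 7.90, 7.92 and 8.78 in embryonic cells. Other probes of Ntrk3 gave smaller differences with all arrays, of -1.01, -0.72 and -0.20. Ntrk2 was detected on 1 ES-derived array, and its 3 probes ran from -1.87 to -0.21 with all arrays. Its adjusted p was 0.0666 without the 3 arrays of mean intensity under 100. Ephb1, an ephrin receptor that steers motor axons, was called (-2.32 ± 0.38, adjusted p = 0.0139) with levels of 9.01, 8.07, 7.93 and 7.76 in ES-derived cells and 10.32, 9.88, 9.75 and 10.42 in embryonic cells. Slc17a6, the vesicular glutamate transporter of spinal interneurons, was called (-3.52 ± 0.64, adjusted p = 0.0227) with 9.24, 7.09, 6.42 and 7.17 against 11.04, 8.39, 10.39 and 10.92 in embryonic cells. With GFP-high 1 its groups overlapped. Chodl, a chondrolectin of fast motor neurons, was called (-3.58 ± 0.76, adjusted p = 0.0401) and had 4.26, 6.02, 7.29 and 5.24 in ES-derived cells against 8.59, 11.01, 10.29 and 8.27 in embryonic cells. Glra2, a glycine receptor subunit, was called too (-2.50 ± 0.53, adjusted p = 0.0422). On GFP-high 1, however, Glra2 was detected at 10.22, and its difference with all arrays was -1.66 with overlapping groups (adjusted p = 0.375). Without the 3 arrays of mean intensity under 100 its adjusted p was 0.112.

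Of 27 tested Hox genes, 5 were called lower and 0 higher with all arrays, against 0.816% of all features called lower. Hoxd10, a lumbar gene of hindlimb-level motor neurons, was at 4.34, 4.21, 4.31 and 4.46 in ES-derived cells and 11.34, 10.26, 9.89 and 10.47 in embryonic cells. The ES-derived arrays were all at background, and the gene was at least 20.7-fold lower (adjusted p = 7.26e-05), or at least 52.4-fold lower without GFP-high 1 (adjusted p = 4.70e-05). With all arrays and undetected levels set to the lowest detected one, Hoxd10 was not called. Hoxc9, which marks the thoracic cord, was at 5.59, 8.39, 6.33 and 5.41 in ES-derived cells and 11.23, 11.10, 10.52 and 11.13 in embryonic cells, with a difference of -4.57 ± 0.59 (adjusted p = 0.00769). GFP-medium 1 was the highest ES-derived array, and the difference was -5.21 without it (adjusted p = 0.00144). Hoxd10 and Hoxc9 were called in every fit that left out 1 array.

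The calls fell in paralog groups 6 and above. Of 9 tested genes of groups 6 to 9, 3 were called lower and 0 higher with all arrays: Hoxc9, Hoxa7 (-3.13 ± 0.55, adjusted p = 0.0343) and Hoxc6 (-2.37 ± 0.42, adjusted p = 0.0368). Hoxa7 was at 7.95, 9.47, 6.92 and 6.84 in ES-derived cells and 11.03, 11.32, 10.43 and 10.90 in embryonic cells. Hoxc6, a gene of forelimb level, was at 9.41, 8.60, 8.43 and 8.56 in ES-derived cells and 11.40, 10.40, 10.77 and 11.92 in embryonic cells, so it was detected on every array of both groups. Without GFP-medium 1 it was not called (adjusted p = 0.0975). Hoxd8 was added without GFP-high 1 (-2.31 ± 0.41, adjusted p = 0.0209). Of 6 tested genes of groups 10 to 13, 2 were called lower, Hoxd10 and Hoxc10 (at least 1.67-fold lower, adjusted p = 0.0196). Hoxa11 was added without GFP-high 1 (at least 1.53-fold lower, adjusted p = 0.0489). Of these 6 genes, 5 were detected on no ES-derived array. With all arrays and undetected levels set to the lowest detected one, the median of the 6 was 0.47, against 0.69 over all features and -0.79 for groups 6 to 9. The differences were then -4.37 for Hoxd10, -0.74 for Hoxc10, 0.30 for Hoxa11, 0.65 for Hoxd12, 0.88 for Hoxc13 and 1.20 for Hoxa13. Hoxc10 was called in no fit that left out 1 array other than GFP-high 1 (adjusted p = 0.34 without GFP-medium 1). Leaving out any other array gave 1 or 2 called genes of groups 6 to 9. Median scaling left Hoxd10 as the 1 called Hox gene of groups 6 to 13, and scaling over detected probes left 0.

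Of 12 tested genes of groups 1 to 5, 0 were called in either direction with all arrays or without GFP-high 1, with medians of 0.31 and 0.88. Hoxa5, used at cervical level, was the member with the largest positive difference (2.00 ± 0.56, adjusted p = 0.179). It was at 12.66, 10.47, 13.45 and 12.61 in ES-derived cells and 10.39, 9.36, 10.59 and 10.85 in embryonic cells, so GFP-medium 1 lay within the embryonic range and the other 3 above it. Without GFP-medium 1 its difference was 2.50 (adjusted p = 0.0462). Hoxb5 also had its lowest ES-derived level on GFP-medium 1, at 12.64, 9.56, 12.71 and 12.84 in ES-derived cells and 10.30, 9.64, 10.04 and 10.43 in embryonic cells (1.84 ± 0.66, adjusted p = 0.32). Without the 3 arrays of mean intensity under 100, which are both ES-derived replicate 1 arrays and embryonic GFP-medium 1, 4 of the 12 were called higher and 0 lower. In that fit 139 of 9506 features were called higher. The lowest called paralog group in the all-array fit was thus 6, and the difference between the anterior and the posterior lists was not tested.

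**Figure D2:**
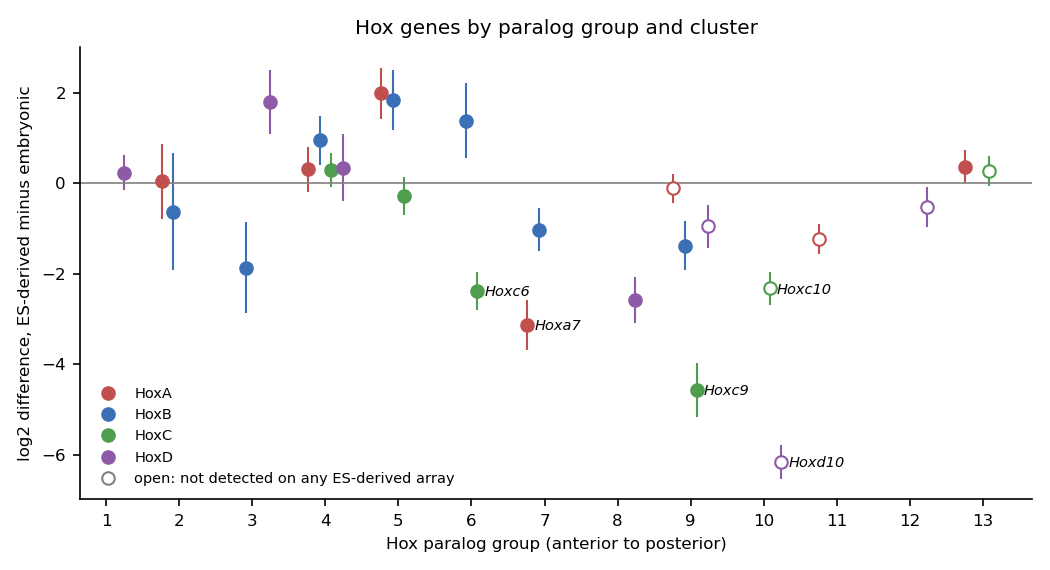
Points show the log2 difference (ES-derived minus embryonic, all arrays) of 27 tested Hox genes with its standard error, by paralog group on the x axis and cluster in colour; open points mark genes detected on no ES-derived array. The 5 labelled genes were called, all lower, in paralog groups 6 to 10.

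Genes of muscle, mesenchyme and blood were among those lower in ES-derived cells. Of 15 tested muscle genes, 6 were called lower and 0 higher (0.816% of all features were called lower), and the median difference was -3.70. With levels that were not detected set to the lowest detected one, this median was -2.09 and that of all features 0.69. Myl1, which encodes an alkali light chain of fast-fibre myosin, was at 4.41, 4.72, 4.82 and 4.90 in ES-derived cells and 11.09, 10.82, 10.86 and 10.33 in embryonic cells (-6.06 ± 0.31, adjusted p = 5.37e-05). Myh8, the perinatal myosin heavy chain, was at 4.81, 6.37, 4.46 and 4.44 in ES-derived cells and 10.66, 10.81, 9.57 and 9.79 in embryonic cells (-5.19 ± 0.49, adjusted p = 0.00187). Each was detected on 1 ES-derived array. Actc1, cardiac actin that embryonic skeletal muscle also makes, was detected on 0 of 4 ES-derived arrays and was at least 11.2-fold lower (adjusted p = 5.74e-05). Acta1, Tnnc1 and Tnnc2, an actin and 2 troponin C genes, were the other 3 called members. Actin genes are near-identical in their coding parts, so their probes can share signal.

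Acta2, Myl4 and Tnnt1 joined without GFP-high 1, for 9 of 15 lower (1.87% of all features). Acta2, smooth muscle actin, was at 8.29, 9.15, 4.38 and 4.74 in ES-derived cells and 12.02, 11.24, 11.46 and 11.46 in embryonic cells (-5.90 ± 1.17, adjusted p = 0.0315). Of its 4 probes, 2 gave small positive differences. The mean level over the muscle list was 5.29, 5.92, 5.27 and 4.997 on the ES-derived arrays and 8.46, 8.49, 7.99 and 7.96 on the embryonic ones, with no overlap. Leaving out embryonic GFP-high 1 or embryonic GFP-medium 1 gave 4 called muscle genes, and leaving out each of the others gave 5 to 9. Median scaling gave 4 and scaling over detected probes 0. Myog, the myogenic factor that defines differentiating muscle, was detected on 0 of 4 ES-derived and 2 of 4 embryonic arrays and was not called (adjusted p = 0.576).

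Mesenchymal genes followed. Of 26 tested, 9 were called lower and 0 higher, against 0.816% of all features called lower. The list median was -1.70, or -0.27 with undetected levels set to the lowest detected one. Pdgfra, a growth factor receptor of mesenchyme and oligodendrocyte precursors, was at 5.16, 8.40, 6.16 and 5.51 in ES-derived cells and 10.50, 10.24, 11.21 and 10.86 in embryonic cells (-4.40 ± 0.71, adjusted p = 0.0234). Col5a1, a fibrillar collagen chain, was at 4.30, 8.11, 5.97 and 6.55 in ES-derived cells and 10.51, 9.59, 9.70 and 11.21 in embryonic cells (-4.02 ± 0.64, adjusted p = 0.0232). GFP-medium 1 was the highest ES-derived array for both genes. Fbln2, an elastic fibre protein, was detected on 0 of 4 ES-derived arrays and was at least 3.41-fold lower (adjusted p = 0.00717), though another probe of it gave -0.34. Dcn, a small proteoglycan, was at 6.68, 7.32, 4.55 and 4.36 in ES-derived cells and 9.21, 8.82, 9.58 and 9.62 in embryonic cells (-3.58 ± 0.67, adjusted p = 0.0492), and its other probe gave -0.48.

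Without GFP-high 1 the count of mesenchymal genes was 11 of 26 lower (1.87% of all features). Col3a1 (-3.77 ± 0.51, adjusted p = 0.00545) was one of the 2 added. The mean level over the list was 4.94, 5.72, 4.90 and 5.02 on the ES-derived arrays and 7.18, 6.64, 7.25 and 7.45 on the embryonic ones. Without GFP-medium 1, 8 muscle and 8 mesenchymal genes were called lower. The mesenchymal count was 3 without embryonic GFP-high 1, embryonic GFP-high 2 or embryonic GFP-medium 2, 6 without embryonic GFP-medium 1, 5 without ES-derived GFP-high 2, 4 without ES-derived GFP-medium 2, and 0 under either scaling. Outside the lists, Matn4, a matrilin of extracellular matrix, was at 4.52, 7.22, 4.53 and 6.03 in ES-derived cells and 10.60, 9.63, 7.74 and 10.78 in embryonic cells (-4.11 ± 0.63, adjusted p = 0.0178; other probe -0.53). Ccn4, a secreted Wnt target also called Wisp1, was at 4.35, 6.68, 4.62 and 4.53 in ES-derived cells and 8.86, 8.26, 9.08 and 9.52 in embryonic cells (-3.89 ± 0.54, adjusted p = 0.0103). The receptor kinase Axl (-4.54 ± 0.45, adjusted p = 0.00111) and Igfbp5, which binds insulin-like growth factors (-4.04 ± 0.47, adjusted p = 0.00277), were called lower without GFP-high 1, on which Igfbp5 was detected at 10.92.

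Of 8 tested blood genes, 3 were called lower and 0 higher in both fits, all of them globins that were detected on 0 of 4 ES-derived arrays. Over all features, 0.816% were called lower with all arrays and 1.87% without GFP-high 1. Hbb-y, the embryonic beta-like globin of primitive red cells, was at 4.29, 4.78, 4.30 and 4.29 in ES-derived cells and 9.41, 9.69, 10.34 and 9.09 in embryonic cells, which made it at least 11.4-fold lower (adjusted p = 0.000231). Hba-a1, an adult alpha globin, was at least 4.55-fold lower (adjusted p = 0.00701) and Hbb-bh1 at least 1.29-fold lower (adjusted p = 0.0211). Of the 3, 2 were called in each fit that left out 1 embryonic array, 1 induced array or ES-derived GFP-medium 2, and median scaling left 1 and scaling over detected probes 0. Globin genes resemble each other closely, and their probes can share signal. Of 7 endothelial and 10 macrophage genes 0 were called in either fit. Tyrobp, a myeloid adaptor, was detected on 0 of 4 ES-derived and 4 of 4 embryonic arrays, at 5.42, 5.69, 5.15 and 5.16 in embryonic cells, and was not called (adjusted p = 0.199). The mean blood level was 4.74 to 5.25 on the ES-derived arrays and 6.38 to 7.07 on the embryonic ones. The part of muscle, mesenchymal and blood RNA in the other differences was not tested.

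**Figure D3:**
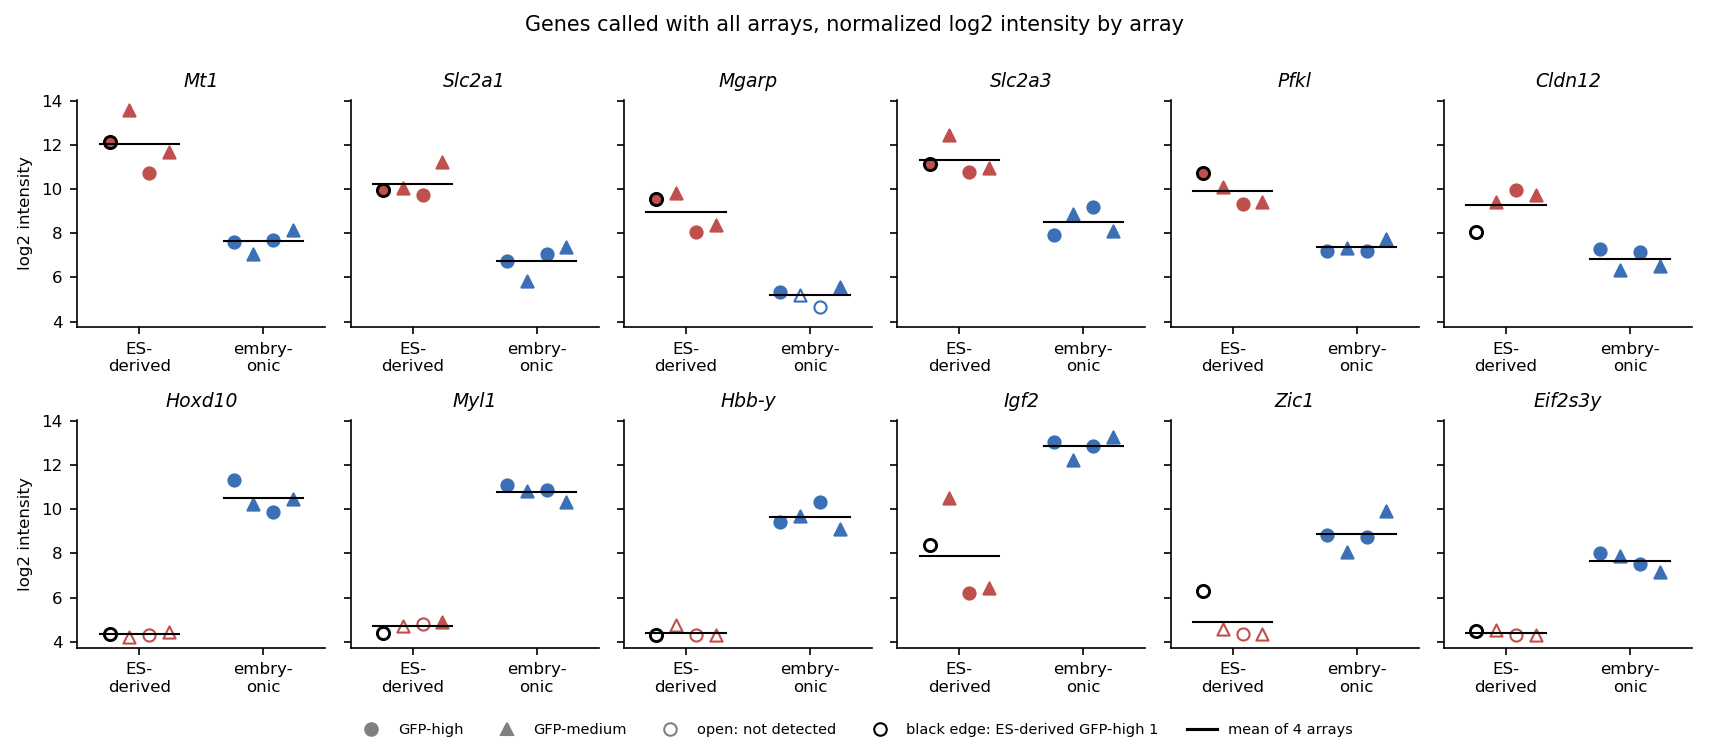
Each panel shows 1 gene called with all arrays, as normalized log2 intensity on the y axis for the 4 ES-derived arrays at the left and the 4 embryonic arrays at the right; circles are GFP-high, triangles GFP-medium, open symbols were not detected, and lines are means. In the upper row the ES-derived arrays lie above the embryonic ones, and in the lower row below them.

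Single genes with other roles were also called lower. Zic1, a zinc finger factor of dorsal cord and somites, was at 6.30, 4.57, 4.35 and 4.37 in ES-derived cells, with detection on none of them, and at 8.82, 8.09, 8.74 and 9.93 in embryonic cells. It was at least 6.85-fold lower (adjusted p = 0.00971) and was called in every fit that left out 1 array. Slc1a3, the glutamate transporter of radial glia and astrocytes, was at 4.56, 7.64, 5.67 and 6.37 in ES-derived cells and 9.77, 9.49, 9.74 and 9.95 in embryonic cells (-3.68 ± 0.51, adjusted p = 0.0103). It was the 1 called of 8 glial genes with all arrays, where 0.816% of all features were called lower. The median of the list was 0.22, against -0.13 over all features. Without GFP-high 1 this median was 0.61, and 2 other glial genes, Olig1 and Mbp, were called higher. Cxcl12, a chemokine that meninges and motor neurons make, was at 4.38, 4.26, 5.22 and 4.86 in ES-derived cells and 8.29, 7.77, 7.96 and 8.22 in embryonic cells (-3.38 ± 0.33, adjusted p = 0.00203), but its other probe gave 0.59.

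In the Wnt and BMP list, 2 of 15 were called lower and 0 higher in both fits, and both are ligands. The share of all features called lower was 0.816% with all arrays and 1.87% without GFP-high 1. Bmp4, a dorsalizing signal, was at 4.34, 4.52, 4.99 and 5.16 in ES-derived cells and 7.25, 6.55, 6.93 and 7.55 in embryonic cells (-2.32 ± 0.36, adjusted p = 0.0181). Wnt5a was at 4.68, 4.83, 4.59 and 5.77 in ES-derived cells and 6.52, 7.55, 7.75 and 7.17 in embryonic cells (-2.28 ± 0.41, adjusted p = 0.0382). Both were detected on 1 ES-derived array. Bmp4 was not called without embryonic GFP-high 1, embryonic GFP-high 2, embryonic GFP-medium 2 or either induced array (adjusted p up to 0.101). Of the fits that left out 1 array, the 1 without ES-derived GFP-high 1 called Wnt5a, and its adjusted p was up to 0.109 in the others. Dropping the 3 dimmest arrays gave Wnt5a an adjusted p of 0.0534.

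Of 15 tested imprinted genes, 1 was called lower with all arrays (0.816% of all features) and 2 without GFP-high 1 (1.87% of all features). Igf2, a fetal growth factor expressed from the paternal allele in most tissues, was at 8.38, 10.51, 6.20 and 6.42 in ES-derived cells and 13.05, 12.24, 12.87 and 13.28 in embryonic cells (-4.98 ± 0.87, adjusted p = 0.033). The replicate 1 arrays were the higher ES-derived ones, and the gene was not detected on GFP-high 1. Of the fits that left out 1 array, those without ES-derived GFP-high 1 or ES-derived GFP-medium 1 called it and the others did not (adjusted p up to 0.127). Grb10, an adaptor of insulin and growth factor receptors, was at 4.30, 7.11, 8.28 and 8.45 in ES-derived cells and 11.54, 10.36, 11.58 and 11.68 in embryonic cells. It was called without GFP-high 1 (-3.52 ± 0.47, adjusted p = 0.00505) and not with it (-4.26 ± 0.83, adjusted p = 0.054).

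Eif2s3y, a Y-linked translation initiation factor, was detected on 0 of 4 ES-derived arrays (4.49, 4.52, 4.31 and 4.31) and on 4 of 4 embryonic arrays (8.01, 7.88, 7.53 and 7.16). It was at least 2.88-fold lower (adjusted p = 0.00187), or at least 6.19-fold lower without GFP-high 1 (adjusted p = 0.000992). Xist, the RNA of the inactive X chromosome, was detected on 0 of 4 ES-derived and 4 of 4 embryonic arrays, at 4.32, 5.16, 5.06 and 4.73 in ES-derived cells and 6.22, 5.80, 7.08 and 6.96 in embryonic cells. The 2 groups did not overlap, but the difference was not called (adjusted p = 0.104, and 0.0649 without GFP-high 1). Each embryonic array thus held both the RNA of the inactive X and that of a Y-linked gene. The other Y-linked genes tested, Kdm5d and Uty, lay between 4.26 and 5.86 on all 8 arrays and were not called. Kdm5d was detected on 0 of 4 ES-derived and 2 of 4 embryonic arrays. Uty was detected on 3 of 4 ES-derived and 3 of 4 embryonic arrays, with a difference of 0.40 ± 0.42 (adjusted p = 0.772), or 0.84 without GFP-high 1 (adjusted p = 0.24).

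The 8 features higher in ES-derived cells with all arrays (0.0827% of features) were led by Mt1. Mt1, a metallothionein that binds zinc and copper and is induced by metals and glucocorticoids, was at 12.12, 13.59, 10.72 and 11.66 in ES-derived cells and 7.61, 7.06, 7.69 and 8.15 in embryonic cells (4.40 ± 0.61, adjusted p = 0.0103). It was 1 of 9 metallothionein and zinc genes tested. Mt2, its neighbour in the same cluster, was detected on 2 of 4 ES-derived and 0 of 4 embryonic arrays and was not called (adjusted p = 0.526). Mgarp, a mitochondrial protein reported to respond to hypoxia, was at 9.56, 9.83, 8.06 and 8.35 in ES-derived cells and 5.35, 5.18, 4.66 and 5.54 in embryonic cells (3.77 ± 0.46, adjusted p = 0.00673), with detection on 2 of 4 embryonic arrays.

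Of 20 tested glycolysis and hypoxia genes, 3 were called higher and 0 lower with all arrays, and 4 higher and 0 lower without GFP-high 1 (0.985% of all features were called higher in that fit). The list median was 0.58 with all arrays, and -0.13 under median scaling, when that of all features was -0.58. Slc2a1, the glucose transporter GLUT1, was at 9.96, 10.05, 9.71 and 11.22 in ES-derived cells and 6.75, 5.83, 7.05 and 7.38 in embryonic cells (3.49 ± 0.47, adjusted p = 0.00947). Slc2a3, the neuronal glucose transporter GLUT3, was at 11.14, 12.43, 10.75 and 10.96 in ES-derived cells and 7.93, 8.85, 9.17 and 8.08 in embryonic cells (2.81 ± 0.46, adjusted p = 0.0248). Pfkl, a subunit of phosphofructokinase, was at 10.74, 10.11, 9.33 and 9.43 in ES-derived cells and 7.18, 7.33, 7.21 and 7.72 in embryonic cells (2.54 ± 0.39, adjusted p = 0.0181), while its other probe gave 0.21.

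All 3 of these genes were detected on all 8 arrays. Like all 87 features called with all arrays, they did not overlap between the groups. Egln3, a prolyl hydroxylase that senses oxygen, was at 6.35, 8.76, 8.62 and 8.38 in ES-derived cells and 5.96, 6.47, 5.38 and 6.30 in embryonic cells, and it was called without GFP-high 1 (2.69 ± 0.40, adjusted p = 0.0088). Mt1, Mgarp and Slc2a1 were called in every fit that left out 1 array, with adjusted p up to 0.0499, 0.0381 and 0.0469. Slc2a3 and Pfkl were not, with adjusted p up to 0.113 and 0.089, and the list count was 1 without embryonic GFP-high 1, embryonic GFP-medium 1, embryonic GFP-medium 2 or the induced GFP-medium array and 0 under either scaling. The other 3 of the 8 were Cldn12, a claudin (2.47 ± 0.47, adjusted p = 0.0493), Ttc27 (2.05 ± 0.38, adjusted p = 0.0414) and Rnu6, the U6 spliceosomal RNA, whose many near-identical copies make its probe uncertain (2.33 ± 0.40, adjusted p = 0.0302). Of the 24 alternatives, 5 called Cldn12, 7 called Ttc27 and 8 called Rnu6, and the highest adjusted p with 1 array left out was 0.18, 0.179 and 0.136.

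The promoters of the named metallothionein and glycolysis genes are shown because these lists hold 4 of the 8 rises called with all arrays, and their known inducers act through short motifs. The 300 bases span the gene start, mostly upstream of it, 5' to 3' on the gene's strand (RefSeq, GRCm38.p6). Capitals mark the core of the metal response element (TGCACNC or TGCGCNC) in Mt1 and the core of the hypoxia response element (ACGTG or GCGTG) in the others, on both strands, and no 2 marked matches overlap. Mt1 lies at chr8:94178839-94179138 on the plus strand, Slc2a1 at chr4:119108495-119108794 on the plus strand, Pfkl at chr10:78009758-78010057 on the minus strand and Egln3 at chr12:54203825-54204124 on the minus strand. Slc2a3 is named only.
Mt1 promoter: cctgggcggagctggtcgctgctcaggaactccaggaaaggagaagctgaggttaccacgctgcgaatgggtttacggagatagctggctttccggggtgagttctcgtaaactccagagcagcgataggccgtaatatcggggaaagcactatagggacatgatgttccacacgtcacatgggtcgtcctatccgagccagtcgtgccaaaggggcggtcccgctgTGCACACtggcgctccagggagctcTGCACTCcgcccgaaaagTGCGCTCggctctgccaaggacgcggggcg
Slc2a1 promoter: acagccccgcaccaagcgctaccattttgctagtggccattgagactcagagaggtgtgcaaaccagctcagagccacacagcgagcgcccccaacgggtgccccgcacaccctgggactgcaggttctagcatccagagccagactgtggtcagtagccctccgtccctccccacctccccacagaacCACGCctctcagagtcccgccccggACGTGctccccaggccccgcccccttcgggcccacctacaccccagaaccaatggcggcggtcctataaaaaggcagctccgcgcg
Pfkl promoter: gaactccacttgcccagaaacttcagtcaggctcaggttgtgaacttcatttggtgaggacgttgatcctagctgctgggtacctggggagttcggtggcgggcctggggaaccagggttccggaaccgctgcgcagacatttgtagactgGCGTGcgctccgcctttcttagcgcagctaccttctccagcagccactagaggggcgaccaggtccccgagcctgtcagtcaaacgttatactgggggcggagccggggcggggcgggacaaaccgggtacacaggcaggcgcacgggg
Egln3 promoter: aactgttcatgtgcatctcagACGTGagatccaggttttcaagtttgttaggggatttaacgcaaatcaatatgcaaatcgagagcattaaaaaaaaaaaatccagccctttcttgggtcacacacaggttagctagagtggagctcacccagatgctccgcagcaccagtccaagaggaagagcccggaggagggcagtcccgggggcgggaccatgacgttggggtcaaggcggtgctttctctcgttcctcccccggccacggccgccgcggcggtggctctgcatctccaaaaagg
Mt1 held 3 matches to the metal response core. Of 32851 promoters of this length 25.7% held at least 1 and 1.97% at least 3. Slc2a1 held 2 matches to the hypoxia response core, which 20.6% of promoters equalled or exceeded, and Pfkl and Egln3 held 1 each. Of all promoters 43.8% held at least 1. Matches to the other core, which are not marked above, numbered 2 in Mt1, 1 in Slc2a1, 1 in Pfkl and 0 in Egln3. A match describes these letters and is not a measured binding site.

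Without GFP-high 1, 188 features were called that were not called with it, 87 higher and 101 lower. Stra8, Rhox5 and Rec8, which belong to none of the gene lists, were among the largest rises. Stra8, which retinoic acid induces at the onset of meiosis, was at 4.37, 13.01, 7.06 and 9.27 in ES-derived cells and 4.28, 4.25, 4.24 and 4.26 in embryonic cells. It was detected on 0 of 4 embryonic arrays and on the 3 brighter ES-derived arrays, and was at least 36.0-fold higher without GFP-high 1 (adjusted p = 0.0223). Rhox5, an X-linked homeobox gene, was at 4.62, 13.48, 8.60 and 9.86 in ES-derived cells and 5.90, 6.25, 4.88 and 5.83 in embryonic cells (5.10 ± 0.88, adjusted p = 0.0192). Rec8, a meiotic cohesin subunit, was at 4.98, 8.96, 9.33 and 8.58 in ES-derived cells and 4.84, 4.33, 5.57 and 5.05 in embryonic cells (4.48 ± 0.36, adjusted p = 0.000482). Of these 3, only Rec8 was not highest on GFP-medium 1.

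In the pluripotency list, 3 of 15 tested genes were called higher and 0 lower without GFP-high 1, and 0 with all arrays. Over all features, 0.985% were called higher without GFP-high 1 and 0.0827% with all arrays. Lin28a, which blocks maturation of let-7 microRNAs, was at 4.84, 10.45, 8.82 and 8.26 in ES-derived cells and 4.36, 4.42, 4.85 and 4.86 in embryonic cells (4.96 ± 0.52, adjusted p = 0.00155). Dnmt3l, a cofactor of DNA methyltransferases, was at 4.75, 12.55, 6.50 and 8.54 in ES-derived cells and was detected on 0 of 4 embryonic arrays, which made it at least 23.5-fold higher (adjusted p = 0.0382). Sall4 was at 4.93, 11.58, 8.43 and 8.89 in ES-derived cells and 6.09, 4.31, 6.16 and 7.13 in embryonic cells (3.997 ± 0.88, adjusted p = 0.045). Of the defining markers of the list, named after their values were seen, Nanog was at 4.94, 12.36, 5.70 and 8.04 in ES-derived cells and 4.35 to 5.40 in embryonic cells and was not called (adjusted p = 0.123 without GFP-high 1). Pou5f1 (Oct4) was at 4.30, 6.79, 5.57 and 4.99 in ES-derived cells and 4.54 to 4.94 in embryonic cells (adjusted p = 0.271 without GFP-high 1), and Zfp42 was detected on 0 of 4 ES-derived arrays.

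The same genes were tested without both replicate 1 arrays. Without the 3 arrays of mean intensity under 100, where the ES-derived group is the 2 replicate 2 arrays, all 6 were called: Stra8 (adjusted p = 0.00686) and Dnmt3l (adjusted p = 0.00783), both detected on no embryonic array, Rhox5 (4.27, adjusted p = 0.00643), Lin28a (4.71, adjusted p = 0.00146), Rec8 (4.61, adjusted p = 0.00184) and Sall4 (2.50, adjusted p = 0.0235). That fit called 399 of 9506 features, 139 higher and 260 lower, and 202 of the 275 called without GFP-high 1 were among them. Its 2 ES-derived arrays were also in the fit that picked the 6 genes, so it gives no separate support. With GFP-high 1 kept and GFP-medium 1 left out, 0 of the 6 were called, with adjusted p from 0.194 to 0.698. The part of residual stem cells in these levels was not tested.

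**Figure D4:**
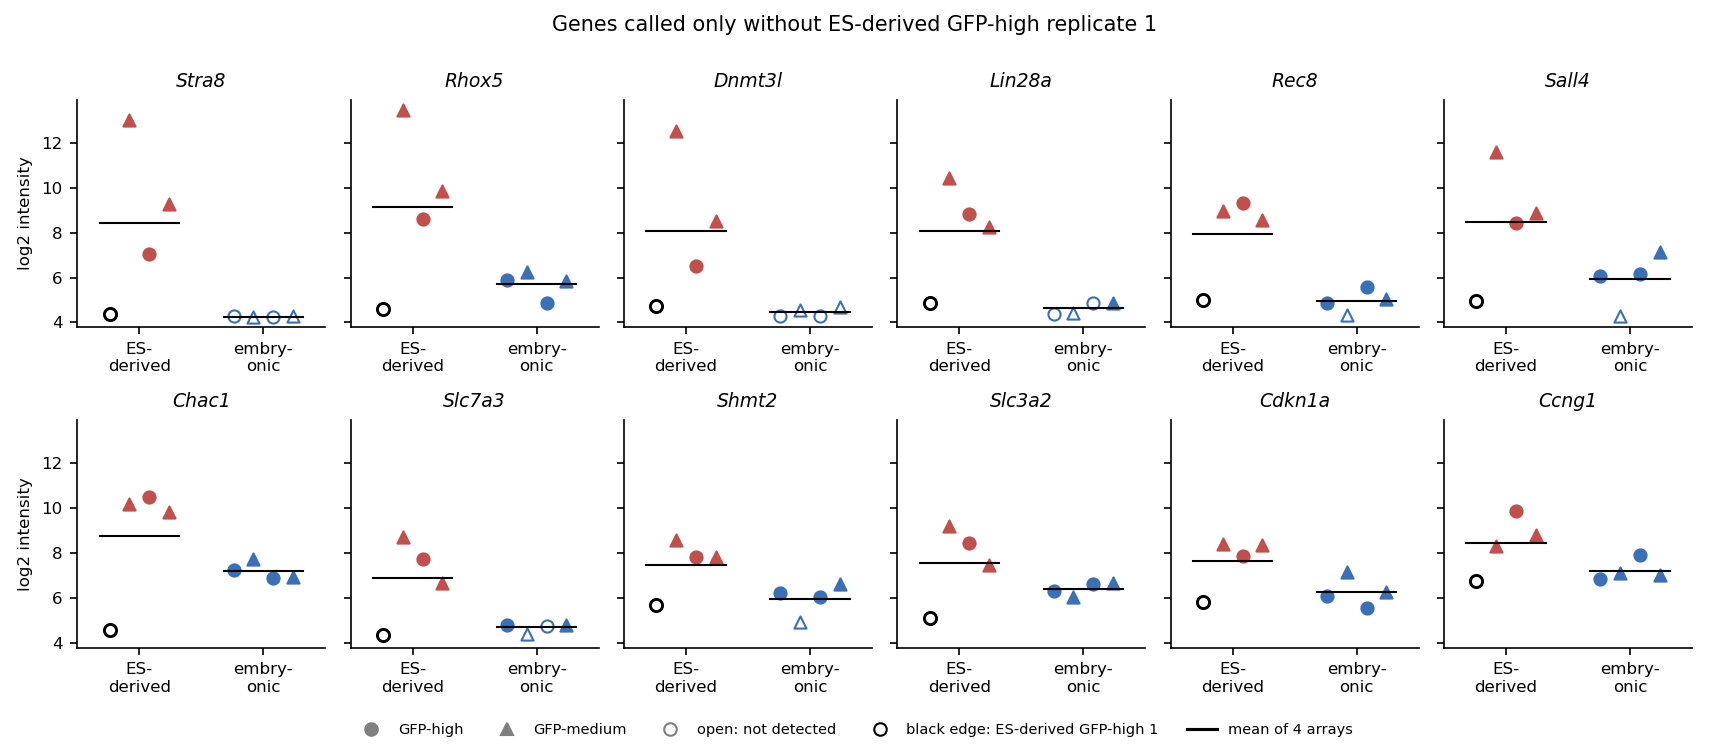
Each panel shows 1 gene called only without ES-derived GFP-high 1 (black edge), as normalized log2 intensity on the y axis for the 4 ES-derived arrays at the left and the 4 embryonic arrays at the right, with symbols as in the plot of genes called with all arrays. GFP-medium 1, the triangle at the left, is the highest array for Stra8, Rhox5, Dnmt3l, Lin28a and Sall4, and in every panel the 3 ES-derived arrays without a black edge lie above all 4 embryonic ones.

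Genes of the integrated stress response and of amino acid supply are known to be driven by the factor ATF4. They gave 5 of 22 called higher and 0 lower without GFP-high 1, against 0.985% of all features called higher. With all arrays 0 were called. Chac1, which degrades glutathione, was at 4.56, 10.18, 10.48 and 9.81 in ES-derived cells and 7.23, 7.74, 6.88 and 6.95 in embryonic cells (3.28 ± 0.41, adjusted p = 0.00364). Slc7a3, a cationic amino acid transporter, was at 4.36, 8.71, 7.72 and 6.67 in ES-derived cells and 4.80, 4.37, 4.76 and 4.79 in embryonic cells (3.38 ± 0.50, adjusted p = 0.00896). Shmt2, a mitochondrial serine hydroxymethyltransferase, rose by 2.34 ± 0.48 (adjusted p = 0.0356) and Slc3a2, the shared chain of amino acid exchangers, by 2.16 ± 0.46 (adjusted p = 0.0401). Aars, alanyl-tRNA synthetase, was the fifth (1.46 ± 0.30, adjusted p = 0.0356). For all 5, GFP-high 1 was the lowest ES-derived array, and only Aars was detected on it. With all arrays the differences were 1.56 for Chac1, 2.19 for Slc7a3, 1.53 for Shmt2, 1.14 for Slc3a2 and 1.05 for Aars (adjusted p from 0.295 to 0.667). Without the 3 dim arrays 3 of the 22 were called higher, against 139 of 9506 features.

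Among 11 tested p53 pathway genes, 2 were called higher and 0 lower without GFP-high 1, against 0.985% of all features called higher. They were Cdkn1a, the cell cycle inhibitor p21, with 5.82, 8.41, 7.88 and 8.36 in ES-derived cells and 6.09, 7.14, 5.55 and 6.25 in embryonic cells (2.09 ± 0.43, adjusted p = 0.0356), and Ccng1, cyclin G1 (2.09 ± 0.40, adjusted p = 0.0274). With all arrays Cdkn1a differed by 1.36 and Ccng1 by 1.22 (adjusted p = 0.385 and 0.527). Nr6a1, an orphan nuclear receptor that silences pluripotency genes during retinoic acid treatment, was at 4.26, 9.77, 8.91 and 8.57 in ES-derived cells and 6.38, 6.03, 6.48 and 6.57 in embryonic cells (2.97 ± 0.38, adjusted p = 0.00439). It was the 1 called gene of 9 in the retinoic acid list, and with all arrays it differed by 1.51 (adjusted p = 0.615). The glial genes called higher were Olig1, a factor of motor neuron and oligodendrocyte progenitors (3.55 ± 0.59, adjusted p = 0.0164) and Mbp, myelin basic protein (2.06 ± 0.45, adjusted p = 0.0432). Olig1 was at 6.40, 9.15, 8.51 and 11.20 in ES-derived cells and 6.20, 6.97, 5.99 and 5.91 in embryonic cells. Of 14 immediate early genes 2 were called lower, Fos (-2.09 ± 0.39, adjusted p = 0.0251) and Jun (-2.36 ± 0.46, adjusted p = 0.0294), both of which had their highest ES-derived level on GFP-high 1 (9.51 and 9.17). With all arrays the differences were -1.55 for Fos and -1.07 for Jun. In the fit without GFP-high 1, 1.87% of all features were called lower.

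**Figure D5:**
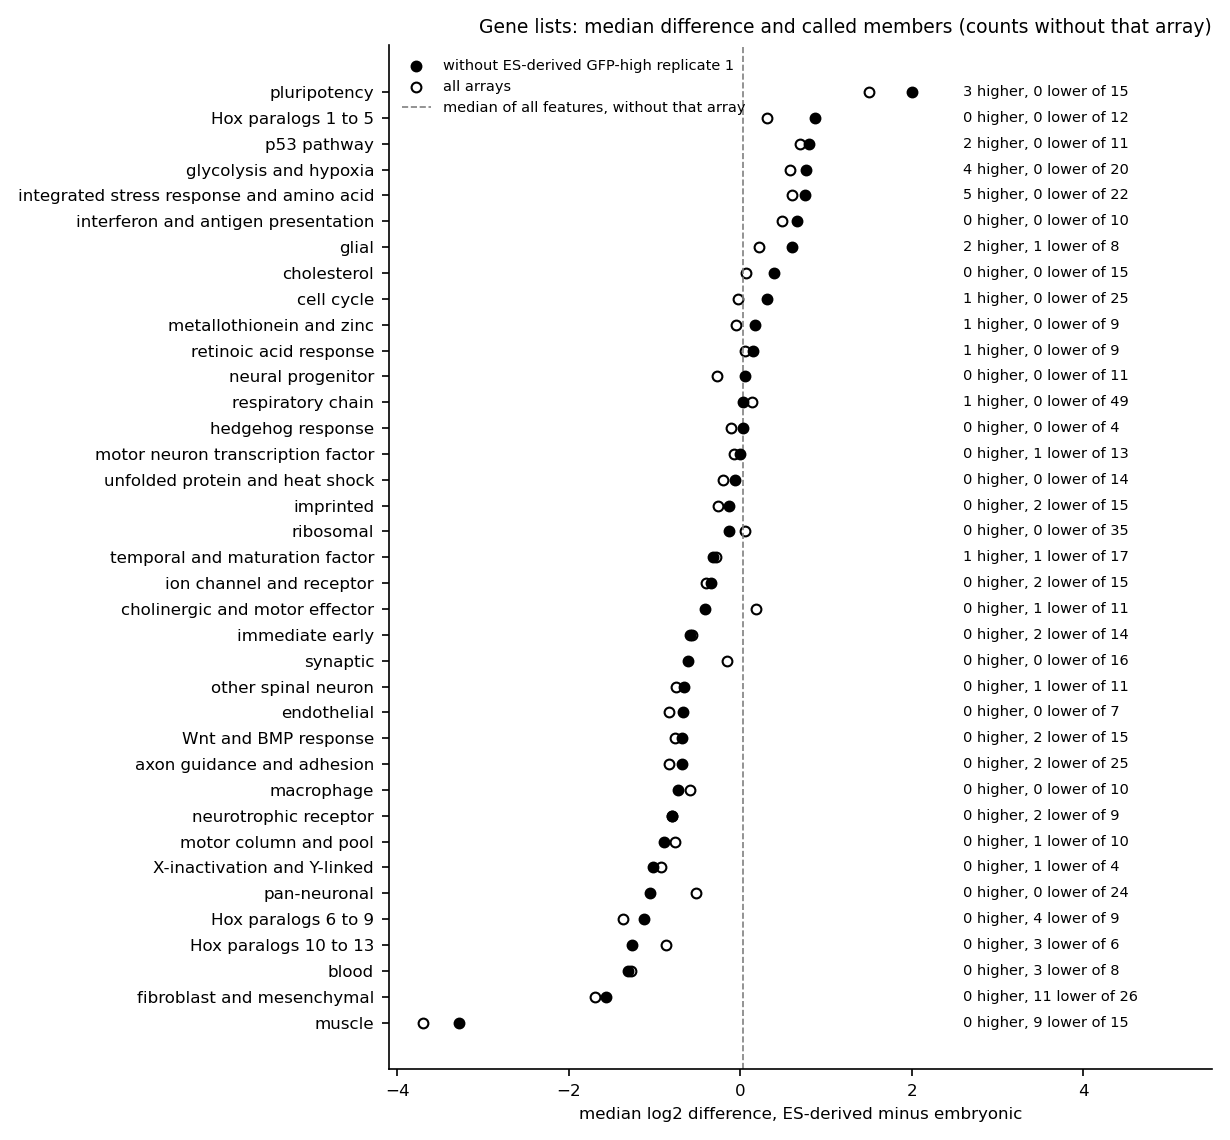
Rows are the 37 gene lists, and points are the median log2 difference (ES-derived minus embryonic) over each list's tested genes without ES-derived GFP-high 1 (filled) and with all arrays (open); the dashed line is the median of all features. Muscle lies lowest at -3.27 without that array, pluripotency highest at 2.00 (-3.25 and 2.08 with undetected levels set to the lowest detected one), and the counts at the right give called members.

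The 4 ES-derived arrays did not overlap the 4 embryonic arrays for the genes below. The same sign within each GFP gate was thus fixed in advance, and only the sizes are of interest. Hoxc6 differed by -2.16 between the GFP-high fractions and -2.58 between the GFP-medium ones, Mt1 by 3.77 and 5.02, and Slc2a1 by 2.94 and 4.03. Igf2 differed by -5.67 between GFP-high and -4.30 between GFP-medium fractions. Of 9679 features 0 were called in the test of whether the origin difference depended on the gate (limma interaction term), with 156 at an unadjusted p under 0.05 and a smallest adjusted p of 0.999. With 2 arrays per gate and origin, GFP-high 1 and GFP-medium 1 each made up 1 of the 2 ES-derived arrays of their gate.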

How the data were processed

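Total RNA of the sorted cells was extracted with Trizol, amplified in a double round and labelled with biotin, per the labels' protocols, and measured on Illumina MouseRef-8 bead arrays. The authors deposited linear intensity values made with BeadStudio, of which the submitters' processing notes give no version, each with a detection p-value beside it per the file headers. Values below 0 show that background had already been subtracted. A further deposited table holds the authors' normalized intensity, by a method not given in the sources used here, and was used only to repeat the fit.

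The platform annotation paired 23978 of 25697 probes with 1 gene symbol, 0 with several and 1719 with none. Intensities were corrected with normexp in limma 3.58.1 (R 4.3.3, offset 16), brought to log2 and quantile normalized over 10 arrays. Probes stayed in where 2 or more arrays had detection p under 0.01, and the brightest probe stood for a gene (9679 features: 8967 genes and 712 unnamed probes; 1790 genes had several kept probes). Limma (lmFit, eBayes, two-sided) fitted origin and gate to the 10 arrays, leaving 6 residual degrees of freedom, or 5 without ES-derived GFP-high 1. The number of arrays limits the precision. A gene detected on no array of a group has a bound there: "at least N-fold" sets the brighter mean against, per array, the higher of the lowest detected level and the gene's own. Ddx3y had no probe named in the annotation used.

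The members, the 37 gene lists, the rule for named genes and most alternatives were chosen with earlier results of these data known. The rule took the 12 largest rises and 12 largest falls among called genes with non-overlapping arrays and an established symbol, 8 of each among genes called only without ES-derived GFP-high 1, up to 4 called members per list (or 2 as values), 9 genes always, and the promoters of named metallothionein and glycolysis genes.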

Additional observations from a re-analysis of the deposited data

Results flagged for a closer look

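In each group of 4 arrays, the highest or lowest level of a named gene was set against the other 3, and 11 of 178 such groups held an array far from the rest. Chance gives about 1 in 20, so the share is near that of chance. Among ES-derived arrays, GFP-medium 1 was the high one for Ccn4 (6.68), Alcam (7.38), Pdia4 (5.74), an endoplasmic reticulum disulfide isomerase, and Ifitm1 (9.73), an interferon-induced membrane protein. ES-derived GFP-high 1 was the low one for Egln3 (6.35) and Chac1 (4.56), and both genes were undetected on it. ES-derived GFP-medium 2 was the high one for Nes (7.03), the nestin filament of progenitors. Among embryonic arrays, GFP-medium 1 was the one apart each time, low for Slc7a3 (4.37), Grb10 (10.36) and Smo (4.31), the hedgehog signal transducer, and high for Rpl24 (6.48), a ribosomal protein gene.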

How the results depend on the processing

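The count of 87 called features was within 1.5 times of itself without background correction, with the authors' normalized values, with no or a stricter detection filter and with the median probe of a gene, but 59 of the 87 were shared with the authors' values and 58 with no filter. It was 6 under median scaling, 0 under median scaling over probes detected on every array (added after seeing the data), 550 with array weights, 51 over the 8 ES-derived and embryonic arrays, 47 with origin and replicate as a random block, 2 with gate means as replicates, 6 with undetected values set to the lowest detected (5 higher and 1 lower, against 8 and 79) and 399 after dropping the 3 dimmest arrays (mean intensity under 100). Leaving out 1 array gave 36 to 275. With the replicate number as a block over 8 arrays it was 37. Deviations of same-numbered arrays correlated between -0.09 and 0.20. With 2 arrays per group this cannot show whether same-numbered arrays share a sort or culture, which the labels do not state. Without ES-derived GFP-high 1, the count of 275 was 1 under median scaling, 31 under median scaling over detected probes, 157 with no filter, 481 with array weights, 167 over 7 arrays and 129 with the replicate block over them. The interaction count was 0 in all settings run. The cause of these shifts was not tested. Of the 35 named genes called with all arrays, 30 lost the call under median scaling and 35 under the other scaling, 12 with the authors' values and 11 with no filter. Gate means as replicates lost 33 of the 35, undetected values set to the lowest detected 31, and the replicate block over 8 arrays 21. Leaving out ES-derived GFP-high 1 lost 0 and leaving out ES-derived GFP-medium 1 lost 6. None of the 35 changed sign. Levels under 8.68 on ES-derived GFP-high 1 could not be measured.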

Other observations

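The mean level over 35 ribosomal protein genes was 11.1, 11.1, 9.73 and 10.83 on the ES-derived arrays and 10.25 to 10.87 on the embryonic ones, and 0 were called. The 2 named members varied more widely. Rps6 was at 11.53 and 9.48 on ES-derived GFP-high 1 and GFP-medium 1, at 4.66 and 6.36 on GFP-high 2 and GFP-medium 2, and at 5.10 to 6.10 on the embryonic arrays, and it was not called (adjusted p = 0.535). Rpl24 was at 10.86 and 8.62 on the same replicate 1 arrays and at 5.26 and 5.62 on the replicate 2 arrays, against 5.12 to 6.48 on the embryonic arrays (adjusted p = 0.543).

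Cholesterol synthesis and interferon genes gave 0 calls among 15 and 10 tested. Irf1, an interferon response factor, was at 4.57, 10.58, 7.14 and 7.77 on the ES-derived arrays and 8.16, 6.71, 5.67 and 7.13 on the embryonic arrays (adjusted p = 0.864), so its highest level was on ES-derived GFP-medium 1. The cell cycle list had a mean level of 5.78, 8.29, 6.52 and 7.48 on the ES-derived arrays and 6.86 to 7.39 on the embryonic ones, and Cdkn1a was the 1 member of 25 called, without ES-derived GFP-high 1.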
